A study of Mus musculus with 4 samples.

Results

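Peaks of open chromatin at the cadherin and protocadherin genes were examined in LβT2 cells, an established mouse line that carries features of the pituitary gonadotrope. A peak was taken when the gene name given to it by the authors' annotation, that of the nearest start site, began with Pcdh or with Cdh and a digit. This gave 728 of the 417506 peaks called in 4 ATAC-seq libraries, under 76 of 35667 gene names. The vehicle libraries 1 and 2 held 153 and 318 of them, and the activin libraries 1 and 2 held 139 and 118. Where peaks of different libraries overlapped by at least 1 bp they were merged, which left 450 regions of 255101. ATAC-seq inserts sequencing adapters into accessible DNA with a transposase, so a peak marks a stretch of DNA that is more accessible than its surroundings. All cells were kept without serum overnight and then given vehicle (2 libraries) or the TGFβ family ligand activin A at 1 nM (2 libraries) for 6 h. The line appears as LbT2, LbT2b, LβT2b and LβT2 in the labels and the design text, and it is called LβT2 here. The labels do not say whether libraries of a treatment came from separate cultures, so any p-value here measures only the spread between these libraries. A single tumour-derived line stands for the gonadotrope in all of them.

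Cadherins are calcium-dependent adhesion proteins of the cell surface. Classical cadherins of types I and II bind catenins at their cytoplasmic tails and hold like cells together, whereas protocadherins lack the catenin-binding tail and act mainly in cell recognition. The clustered protocadherins lie in tandem as the Pcdha, Pcdhb and Pcdhg arrays. In Pcdha and Pcdhg, each variable first exon has its own promoter and is spliced to constant exons shared by the array, and the C-type exons at the ends of these arrays differ in sequence from the rest. In neurons, a combination of these promoters is active in each cell, and CTCF and cohesin take part in that choice.

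Among RefSeq genes, 93 fitted the name rule, and 17 of them were named by no peak. Of the clustered genes, 46 of 58 were named, with 102 peaks in 64 regions. The other members were 30 genes with 626 peaks in 386 regions. The unnamed genes outside the clusters were Pcdh7, Pcdh11x, Pcdh12, Pcdh18 and Cdh8.

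The libraries held 172146474 to 224226184 high-quality autosomal alignments, called reads here. Vehicle library 2 stood apart with 178358 peaks, against 70692 to 85112 in the other libraries, and peaks were called in each library alone. Enrichment of reads at start sites was 2.72 and 2.48 (vehicle) against 3.12 and 3.04 (activin). The gonadotrope genes Cga, Lhb and Gnrhr had a promoter peak in all 4 libraries, Foxl2 in 3, Nr5a1 in 1 and Fshb in 0. None of the 6 markers of other pituitary cells, the 3 endothelial or the 3 fibroblast markers had one in all 4, although Col1a1 and Pdgfra each had one in 3.

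Promoter sequence was available from RefSeq (GRCm38.p6) for 22 genes outside the clusters that fitted the name rule, as windows of 250 bases before to 50 after the gene start. Pcdh7, Pcdh18 and Cdh8, which no peak named, are among them. Where a gene had several windows, the one overlapped in most libraries was kept, which can raise the counts of windows with a peak. The same choice was made for all genes of the table. A called peak overlapped 8 of these 22 windows in each library, and 7 windows were overlapped in all 4 libraries (31.8%, against 37.1% of 27025 genes of the table). The 7 genes were Cdh18, Cdh22, Cdh24, Pcdh8, Pcdh9, Pcdh10 and Pcdh17. The windows of Cdh24, Pcdh17 and Pcdh10 are shown because they were open in every library, and that of Cdh10 because no library had a peak there. Each is printed 5′ to 3′ on the gene's strand with CpG dinucleotides in capitals.
Cdh24 (chr14:54641315-54641614, minus strand): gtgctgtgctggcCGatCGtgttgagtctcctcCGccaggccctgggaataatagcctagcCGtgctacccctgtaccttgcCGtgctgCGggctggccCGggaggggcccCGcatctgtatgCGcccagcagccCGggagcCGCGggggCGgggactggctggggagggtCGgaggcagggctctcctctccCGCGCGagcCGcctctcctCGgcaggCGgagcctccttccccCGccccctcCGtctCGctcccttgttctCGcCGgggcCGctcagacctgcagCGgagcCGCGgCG
Pcdh17 (chr14:84443313-84443612, plus strand): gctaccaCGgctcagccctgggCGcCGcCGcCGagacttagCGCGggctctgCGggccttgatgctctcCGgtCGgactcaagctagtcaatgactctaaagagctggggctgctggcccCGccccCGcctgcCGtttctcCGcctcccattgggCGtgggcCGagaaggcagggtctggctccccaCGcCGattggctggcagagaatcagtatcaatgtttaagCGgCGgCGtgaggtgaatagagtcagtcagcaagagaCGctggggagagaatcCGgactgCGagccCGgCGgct
Pcdh10 (chr3:45378148-45378447, plus strand): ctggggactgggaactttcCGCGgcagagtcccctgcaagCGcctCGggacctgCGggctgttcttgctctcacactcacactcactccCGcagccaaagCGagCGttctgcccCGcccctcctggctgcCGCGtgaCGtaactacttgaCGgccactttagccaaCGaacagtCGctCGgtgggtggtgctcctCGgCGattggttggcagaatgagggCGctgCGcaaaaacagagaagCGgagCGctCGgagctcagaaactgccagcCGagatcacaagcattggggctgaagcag
Cdh10 (chr15:18820079-18820378, plus strand): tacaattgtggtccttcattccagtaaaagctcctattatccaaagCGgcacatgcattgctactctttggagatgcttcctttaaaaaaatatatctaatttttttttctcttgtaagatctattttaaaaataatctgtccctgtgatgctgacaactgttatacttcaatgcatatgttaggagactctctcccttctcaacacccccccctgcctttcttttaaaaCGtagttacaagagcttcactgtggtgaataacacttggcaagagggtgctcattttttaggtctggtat

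The Cdh24 window held 30 CpG, that of Pcdh17 held 26 and that of Pcdh10 held 24, while that of Cdh10 held 2. Among the 22 windows, all 7 that were open in every library were among the 13 with at least 10 CpG. None of the 9 windows with under 10 CpG was open in all libraries, and 8 of these 9 had no peak in any. The exception was Pcdh20, with 4 CpG. A region 0.34 kb from its named start had a peak in all 4 libraries, which reached the window in vehicle library 1 alone. Across the table, 75.6% of 12107 genes with at least 10 CpG and 5.80% of 14918 genes with fewer were open in all 4 libraries. The 4 CpG-rich windows without a peak in any library were those of Cdh7, Cdh8, Cdh20 and Pcdh18, with 18 to 23 CpG each. The first 3 encode type II cadherins and Pcdh18 a delta-2 protocadherin. The GC box, searched as GGGCGG on both strands with overlapping matches counted, was found in 9 of the 22 windows (40.9%) and in 36.6% of all windows. It occurred 2 times for Cdh24 and 1 time each for Pcdh17 and Pcdh10, and it was not among the letters of the Cdh10 window. These matches only describe the sequence.

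**Figure D1:**
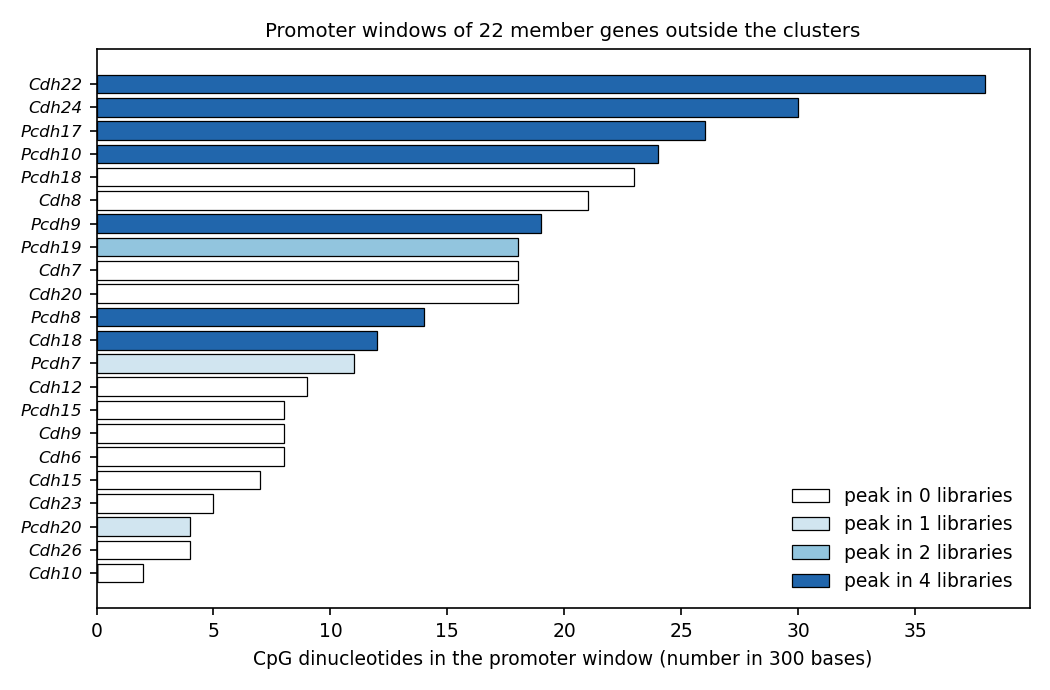
Number of CpG dinucleotides in the 300-base promoter window of 22 genes outside the clusters that fitted the name rule (bars), shaded by the number of libraries with a peak over the window. The 7 windows with a peak in 4 libraries hold 12 to 38 CpG, and Cdh10, with 2, has none.

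Under the annotation of the peaks, 5 of the 76 named genes (6.58%) had a promoter peak in all 4 libraries, against 7003 of all 35667 named genes (19.6%). They were Cdh24, Pcdh10, Cdh18, Pcdh9 and a gene named Pcdhga8. Cdh2 and Pcdh17 had one in 3 libraries, 5 genes in 2, 9 genes in 1 and 55 genes in 0. Both counts depend on the name the annotation chose. Peak strength is given as −log10 q, the peak caller's own value for each peak, which is higher for peaks that stand out more from the local background. In 56.8% of all regions with a peak in every library, both activin values lay above both vehicle values, so that order is common in these lists and values of different lists are set side by side as a description only. The peaks over the Cdh22 window were named for Gm25569 and are outside the 728, although their −log10 q was 5.65 and 4.51 (vehicle) against 9.04 and 7.05 (activin).

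Cdh24, which encodes a type II cadherin, had the strongest promoter peak outside the clusters. Its −log10 q was 13.7 and 8.84 in vehicle libraries 1 and 2 and 15.5 and 13.1 in activin libraries 1 and 2. Its read density was 3.11 and 2.60 (vehicle) against 3.32 and 3.25 (activin), in reads per kb of peak per 1000000 reads in total. The mean density of chromosome 14, where it lies, was 0.279 on the same scale. Both activin densities lay above both vehicle densities on this scale, whereas the −log10 q of the groups overlapped. After each library was centred on its median region, the log2 change of Cdh24 was −0.07 ± 0.10 (SE).

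Among the delta protocadherins, Pcdh17, a delta-2 member, had −log10 q of 10.3 and 14.0 (vehicle) against 12.2 and 7.98 (activin) in the region over its start. Pcdh10, also delta-2, had 3.85 and 2.63 (vehicle) against 6.08 and 4.08 (activin). Pcdh9, a delta-1 member, had 2.98 and 1.84 (vehicle) against 1.74 and 3.18 (activin). Only Pcdh10 of these genes had both activin values above both vehicle values. Pcdh8 stood lower in vehicle library 2 than elsewhere, at 1.86 against 4.95 to 6.23. The start region of Pcdh20 was 3.82 and 3.22 (vehicle) against 11.4 and 5.62 (activin).

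Of the classical cadherins, Cdh2, the neural cadherin, had a region over its start with −log10 q of 10.5 and 6.28 (vehicle) against 11.6 and 12.9 (activin). Its read density there was 2.36 and 1.72 (vehicle) against 2.51 and 2.59 (activin). Cdh1, the epithelial cadherin, had a promoter peak in activin library 1 alone, at 2.05. Cdh5, the cadherin of endothelial junctions, had a region 0.36 kb from its named start that the annotation called an intron, with −log10 q of 5.15 and 3.22 (vehicle) against 13.0 and 8.74 (activin). The 3 endothelial markers Pecam1, Kdr and Tie1 had a promoter peak in 1, 1 and 0 libraries, at −log10 q of at most 1.23. Cdh18, a type II cadherin, had 2.74 and 1.60 (vehicle) against 6.66 and 5.74 (activin) at its promoter.

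**Figure D2:**
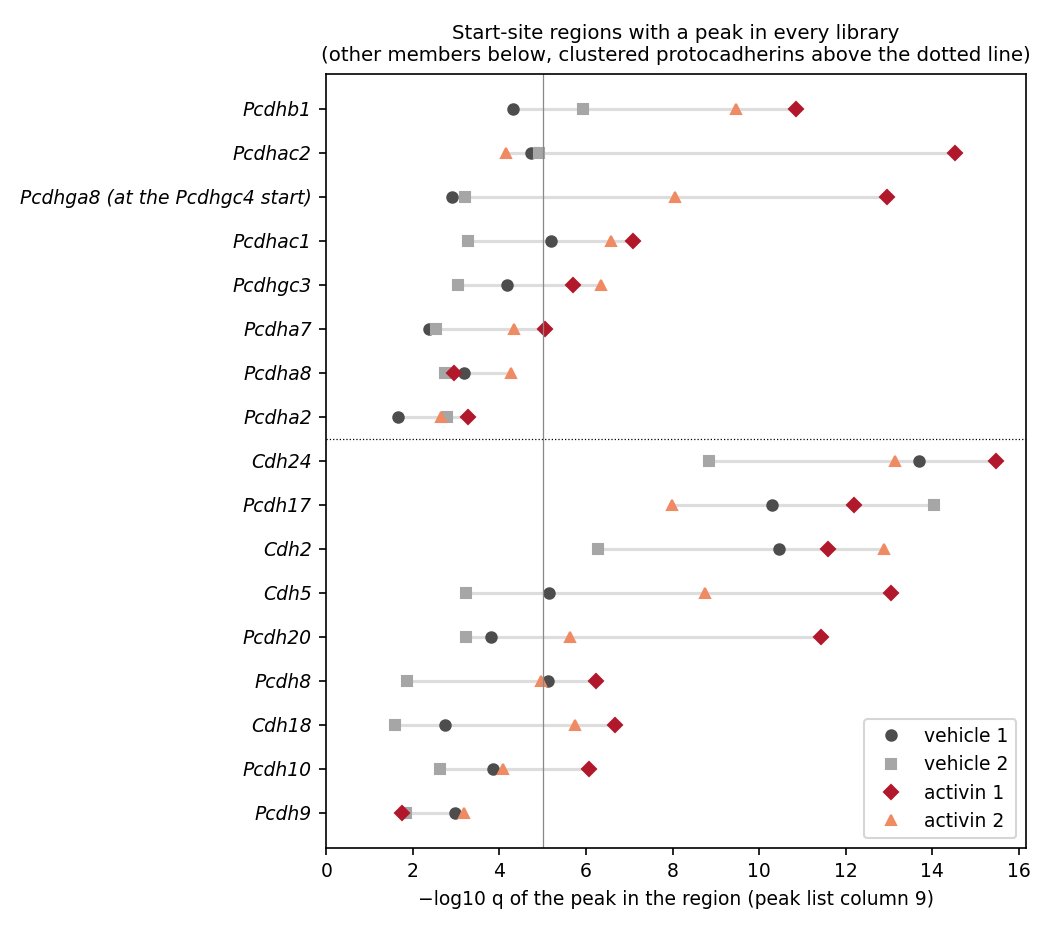
Peak strength (−log10 q) in each library for regions at gene starts that had a peak in all 4 libraries, with other members below and clustered protocadherins above the dotted line; the vertical line marks 5. Cdh24, Pcdh17 and Cdh2 lie above 5 in all 4 libraries, and the clustered genes reach their highest values in the activin libraries.

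The clustered protocadherins occupy a span of 912 kb of chromosome 18, and 10 of their 64 regions (15.6%) had a peak in all 4 libraries, beside 45 of 386 regions of the other members (11.7%) and 11.7% of all regions. Most of the strongest of these lay at C-type exons and at Pcdhb1, a grouping made after the values were seen. At the start of Pcdhac2, −log10 q was 4.74 and 4.91 (vehicle) against 14.5 and 4.16 (activin), so that activin library 1 alone was high. At Pcdhb1, the first gene of the beta array, it was 4.32 and 5.93 (vehicle) against 10.9 and 9.46 (activin). At Pcdhac1 it was 5.20 and 3.27 (vehicle) against 7.09 and 6.57 (activin). Both activin values lay above both vehicle values at Pcdhb1 and Pcdhac1.

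The region named for Pcdhga8 (chr18:37814161-37815835) had −log10 q of 2.89 and 3.22 (vehicle) against 13.0 and 8.05 (activin). Its peak centres lay 0.028 to 0.242 kb from the RefSeq start of Pcdhgc4, a C-type exon, and 89.1 to 89.5 kb from the RefSeq start of Pcdhga8. The name therefore comes from the gene identifier in the annotation, and the position is that of Pcdhgc4. At Pcdhgc3 the values were 4.18 and 3.05 (vehicle) against 5.71 and 6.36 (activin), in a region that activin library 1 named for BC037039.

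The remaining regions found in all libraries were weaker. Pcdha7 had −log10 q of 2.37 and 2.53 (vehicle) against 5.06 and 4.33 (activin). Pcdha2, Pcdha8, Pcdhb10 and Pcdhb14 ranged from 1.29 to 4.36 over all libraries. The weakest named genes of the arrays were Pcdha12, Pcdhb15 and Pcdhga3, whose highest peaks reached 1.40, 1.17 and 1.08. Of the 15 named Pcdhg genes, 11 had peaks of their name in 1 library only, as did 8 of 19 in Pcdhb and 3 of 12 in Pcdha. These counts depend on the name: the start region of Pcdha4 had peaks in 3 libraries, but only that of activin library 2 was named for it. The rest were named for Gm38225.

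Peaks of the clustered members lay mainly in exons, and those of the other members mainly between genes and in introns. Exons took 69.6% and 85.4% (vehicle) against 77.3% and 75.0% (activin) of the clustered peaks. For the other members the shares were 6.92% and 4.69% (vehicle) against 7.69% and 5.88% (activin), close to the 5.03% to 5.73% of all peaks. The clustered share was higher by 70.5 percentage points on average (SD 7.48, n = 4), in 4 of 4 libraries, with p = 0.125 in a 2-sided exact sign-flip permutation test, the smallest that 4 libraries allow. With 16 to 41 clustered peaks in a library the 95% Wilson intervals are wide, from 49.1% to 84.4% in vehicle library 1, and they cover counting error only.

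No clustered peak was intergenic in any library, which allows shares of up to 13.0%, 7.32%, 13.6% and 18.8% in the order vehicle 1, vehicle 2, activin 1 and activin 2. These limits cover counting error in the named peaks only. Of 27, 55, 30 and 23 peaks in the span, 4, 14, 8 and 7 carried other names and were not counted. Pcdha1 runs over 257 kb and Pcdhga2 over 173 kb in RefSeq, so sites between first exons there lie within genes. Intergenic peaks were 49.2% and 54.9% (vehicle) against 54.7% and 56.9% (activin) of the other members' peaks, beside 43.1% and 47.0% (vehicle) against 43.2% and 42.4% (activin) of all peaks. Promoter annotation covered 17.4%, 7.32%, 22.7% and 25.0% of the clustered peaks in the same order, and 6.15%, 2.89%, 5.98% and 5.88% of the others. Of all peaks it covered 13.0%, 7.51%, 12.9% and 14.7%, so the clustered share was above that of all peaks in 3 of the 4 libraries and the others' share was below it in 4 of 4. The difference between clustered and other members was 12.9 percentage points on average (SD 6.53, n = 4), above 0 in 4 of 4 libraries (2-sided exact sign-flip permutation test, p = 0.125).

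Without a threshold on −log10 q, the peaks annotated as promoter did not part the clustered from the other members beyond their spread. Their median −log10 q, clustered minus other, was −2.27 and 1.55 (vehicle) against −3.90 and −1.81 (activin). The mean difference was −1.61 (SD 2.29, n = 4, 2-sided exact sign-flip permutation test, p = 0.25). The median read density differed by −0.396 on average (SD 0.286, n = 4, 2-sided exact sign-flip permutation test, p = 0.25), and it was lower for clustered promoters in 3 of the 4 libraries. Each median rests on 3 to 8 peaks and on the annotation, which called some peaks over a gene start exons. In activin library 1 these included the clustered peaks of Pcdhac2 (14.5), Pcdhb1 (10.9) and Pcdhac1 (7.09), and that of Pcdh17 (12.2) among the others. Pcdhac1 counted as promoter in both vehicle libraries and as exon in both activin libraries.

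**Figure D3:**
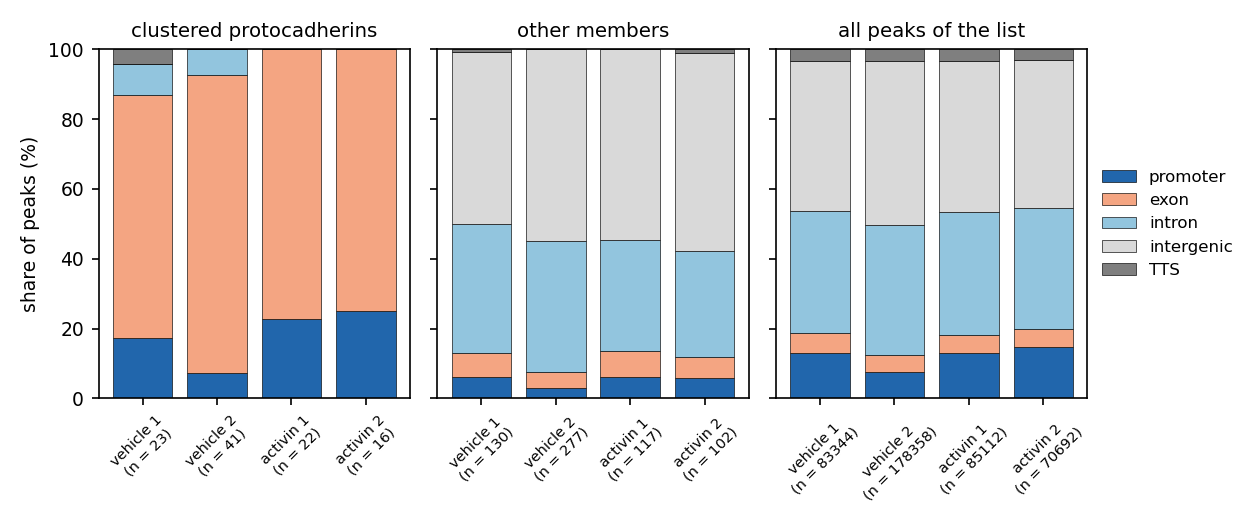
Share of peaks (%) in each annotation class for clustered protocadherins, other members and all peaks, by library, with the number of peaks under each bar. Exons fill 69.6% to 85.4% of the clustered bars and 4.69% to 7.69% of the other members' bars.

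Within the clustered genes, peaks fell into a group near the RefSeq gene start and a group further along the same exon. Zones of up to 700 bp and of 700 to 2500 bp from the start were drawn after this was seen. The start zone held 10 of 23 peaks in vehicle library 1 (43.5%), 13 of 41 in vehicle library 2 (31.7%), 16 of 22 in activin library 1 (72.7%) and 12 of 16 in activin library 2 (75.0%). The activin libraries were higher, with 73.9% ± 1.61 (SD, n = 2) against 37.6% ± 8.32 (SD, n = 2) with vehicle, and the groups did not overlap. The 2-sided exact permutation test gave p = 0.333, the smallest that 2 libraries against 2 allow. Start-zone peaks numbered 10 and 13 (vehicle) against 16 and 12 (activin) and overlapped between the groups, while exon-body peaks numbered 11 and 25 (vehicle) against 6 and 4 (activin) and did not. Enrichment at start sites, given above for each library, was also higher in both activin libraries. The library with the higher share had the higher enrichment in the vehicle pair and the lower enrichment in the activin pair. The part of enrichment and of list length in the share was not tested. The zones were not counted for other genes, so whether the difference is particular to the clustered genes was not tested. Over all peaks of a list, the median −log10 q was 1.61 and 1.49 (vehicle) against 1.88 and 1.85 (activin).

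With peaks of −log10 q of at least 2 only, the start-zone shares were 87.5% and 66.7% (vehicle) against 92.9% and 90.0% (activin), and the difference of 36.3 percentage points became 14.3. The peaks of the exon body were weak, with a median −log10 q of 1.62, 1.56, 1.53 and 1.58 in the order vehicle 1, vehicle 2, activin 1 and activin 2. Of 36 exon-body regions, 30 were found in 1 library only and 2 in all 4, which were those of Pcdhb10 and Pcdhb14. Of 24 start regions, 8 were found in all 4. Vehicle library 2, the library with most peaks, alone supplied 26 of the 45 clustered regions seen in a single library (57.8%), near its 59.9% of all such regions.

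**Figure D4:**
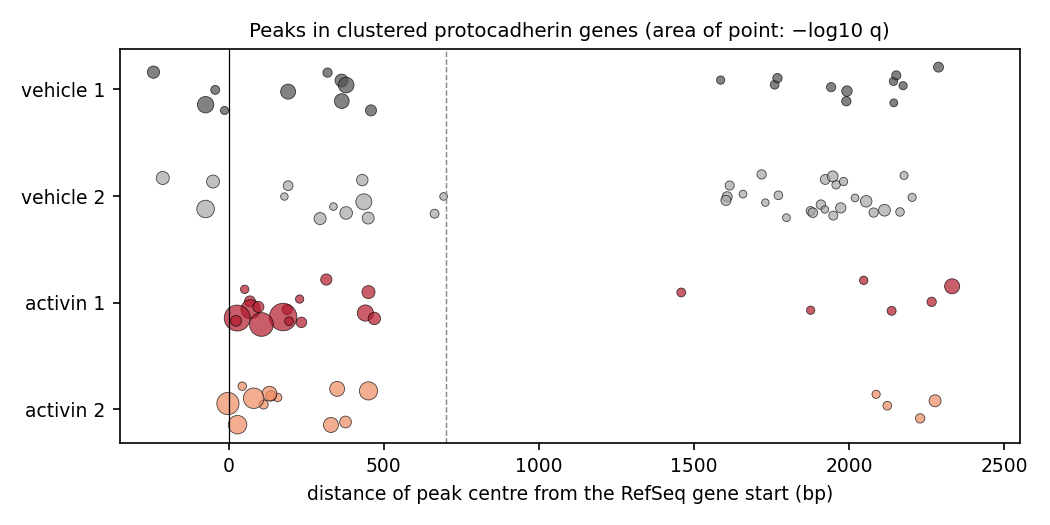
Distance of each clustered protocadherin peak from the RefSeq gene start (bp) by library, with point area in proportion to −log10 q and a dashed line at 700 bp; peaks beyond 2500 bp are not drawn. The large points lie near the start, and the group far from the start is fullest in vehicle library 2.

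Outside the clusters, peaks were concentrated at a few genes. Cdh26 had 101, Cdh5 had 81 and Cdh6, the kidney cadherin, had 75. Cdh13, the cadherin held in the membrane by a lipid anchor, had 43, and Cdh4, the retinal cadherin, had 42. These 5 genes held 47.0% of the 728 peaks. None of the 101 peaks of Cdh26, the 81 of Cdh5, the 75 of Cdh6 or the 42 of Cdh4 was annotated as promoter, and Cdh13 had 1 such peak. Of the 338 intergenic peaks of the other members, 213 (63.0%) lay over 100 kb from the named start, so that the name shows the nearest start and not a tie to the gene. Chromosome 2, which holds Cdh26 and Cdh4, ranked 2 among the autosomes in read density, at 0.598 reads per kb per 1000000 against 0.242 for chromosome 3, and it held 159 member peaks. Chromosome 8, which holds Cdh5 and Cdh13, ranked 13 at 0.303 with 157 member peaks, and chromosome 15, which holds Cdh6, ranked 8 at 0.452 with 139. The part of chromosome-wide density in the peak numbers was not tested.

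The strongest region outside promoters was a short stretch of 148 bp in a Cdh18 intron (chr15:23070280-23070427), with −log10 q of 35.3 and 51.7 (vehicle) against 41.9 and 29.4 (activin). The quality reports list 15, 10, 14 and 8 high-quality reads there, in the order vehicle 1, vehicle 2, activin 1 and activin 2. Its read density of 0.306 to 0.622 was near the 0.452 of chromosome 15, so its peak values and its reads in the quality reports do not rank it alike. Regions below the mean density of their chromosome in every library numbered 7 of the 55 member regions with a peak in all libraries (12.7%), against 10.5% of all such regions. They lay at Cdh6, in 3 cases, and at Pcdh20, Cdh12, Cdh26 and Cdh5.

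The next in strength was an intergenic region 58.9 kb from the start of Pcdh1, a delta-1 protocadherin (chr18:38144023-38145879). Its −log10 q was 21.7 and 21.1 (vehicle) against 21.8 and 17.6 (activin), and its read density was 3.93 and 4.87 (vehicle) against 3.60 and 2.64 (activin) over peaks of 530 to 1857 bp. An intergenic region 59.5 kb from the start of Cdh26 (chr2:178519676-178520647) had −log10 q of 12.7 and 9.18 (vehicle) against 16.4 and 10.9 (activin). A region at −569 kb from the start of Cdh5 (chr8:103531870-103532677) had 5.85 and 4.17 (vehicle) against 16.3 and 13.3 (activin), and a Cdh4 intron region (chr2:179761588-179762780) had 7.26 and 6.22 (vehicle) against 13.5 and 8.30 (activin). Activin values lay above vehicle values at these last regions of Cdh5 and Cdh4, and the groups overlapped at the Cdh26 region.

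The activin effect on read density was tested in 13871 regions shared by all libraries, of which 16 were member regions and 2 of those clustered. By limma with Benjamini-Hochberg adjustment, 0 of the 16 passed an adjusted p of 0.05, and percent called was 0 over all 13871 regions. At an unadjusted p under 0.05 there were 2 of 16, or 12.5%, beside a background of 9.53%. The median log2 change of the 16 was −0.05, beside −0.00 over all regions. The activin pair lay above the vehicle pair in 2 of the 16 (background 20.9%) and below in 5 (background 20.5%), after centring each library on its median region. On the scale of all reads of a library, without that centring, the median region was 0.27 higher in log2 with activin, so every change here is relative to that shift.

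An intergenic region at −7.68 kb from the start of Cdh5 (chr8:104093796-104094084) had the smallest p. It held 59 and 67 (vehicle) against 42 and 29 (activin) reads, at densities of 1.28 and 1.09 (vehicle) against 0.718 and 0.604 (activin). Both activin libraries were below both vehicle libraries, with a log2 change of −1.10 ± 0.21 (SE) and an adjusted p of 0.349 in limma (unadjusted 5.53e-04). Scaling to all reads of the library in place of the median region gave −0.83 with a limma adjusted p of 0.0489. Under that scaling it was the 1 member region called of 16, and 4.36% of all tested regions were called. Over the alternatives that kept all 4 libraries and this region, the limma adjusted p ran from 0.0489 to 0.511. The filter of a mean of at least 50 reads left this region out. The Cdh26 region 59.5 kb from its start stood at −0.31 ± 0.10 (SE) on the log2 scale and at 0.435 after limma's adjustment.

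The other 2 lowest were a Cdh6 intergenic region (chr15:13237725-13238238) at −0.72 ± 0.41 (SE) and the Cdh18 intron region at −0.44 ± 0.36 (SE). In the upward direction, the Pcdh10 promoter had a log2 change of 0.26 ± 0.17 (SE), from densities of 1.32 and 1.11 (vehicle) against 1.97 and 1.56 (activin). The Cdh5 region at −569 kb had 0.25 ± 0.14 (SE). The Cdh5 intron region 17.3 kb from the start and the Cdh26 region 38.1 kb from its start had 0.03 and 0.02. The limma adjusted p of these 6 regions was between 0.591 and 0.972.

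The 2 clustered regions tested were Pcdha7 and the one at the Pcdhgc4 start. Pcdha7 had densities of 0.875 and 0.696 (vehicle) against 0.911 and 0.941 (activin). Its change on the log2 scale was −0.03 ± 0.22 (SE). The region at the Pcdhgc4 start had 1.49 and 1.55 (vehicle) against 1.96 and 1.75 (activin), a change of 0.01 ± 0.16 (SE) after centring. Without the requirement of a common part, an addition made after the data were seen, 55 member regions with 10 clustered were tested, and 0 were called by limma, as among all 28977.

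**Figure D5:**
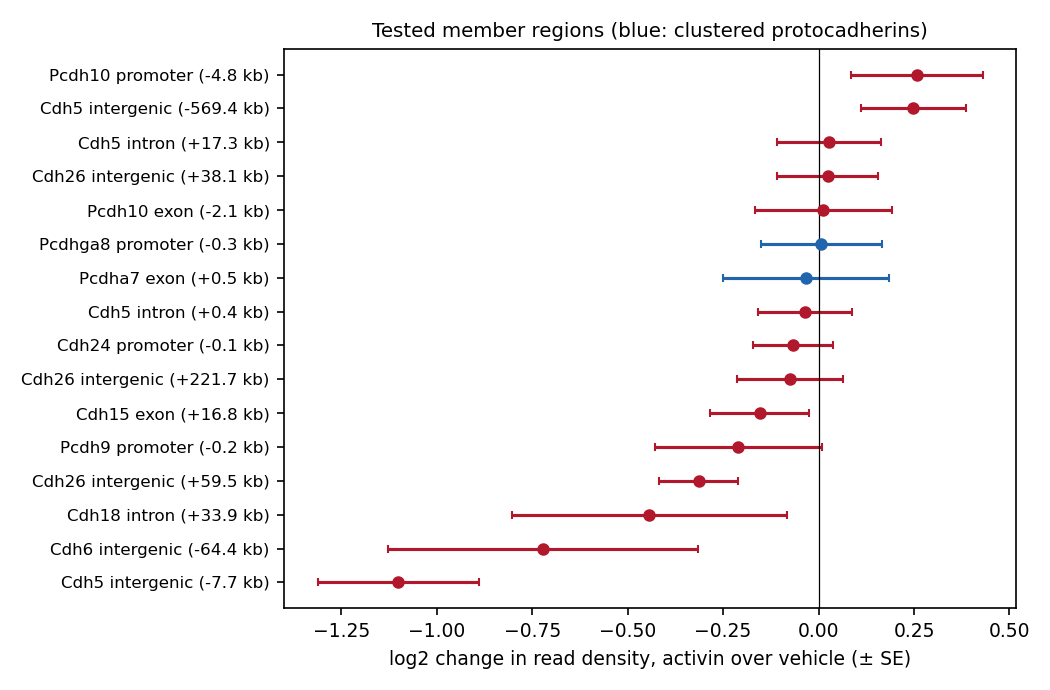
Log2 change in read density, activin over vehicle (points, with SE bars), in the 16 tested member regions, labelled by gene, annotation and distance from the named start in kb. The Cdh5 region at −7.68 kb lies lowest, at −1.10, and both clustered regions lie near 0.

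Higher peak strength in both activin libraries was about as frequent at member regions as elsewhere in these lists. Of the 55 member regions with a peak in all libraries, 31 (56.4%) had both activin −log10 q values above both vehicle values, beside the background of 56.8%. For clustered regions it was 6 of 10, and 3 of the 55 had both below, beside 5.44%.

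Of the member regions, 11 reached −log10 q of 5 in both activin libraries and in neither vehicle library, which is 2.44% of 450 beside 0.994% of all regions, and 0 did so for vehicle, beside 0.0318%. Another 7 reached 5 in all 4 libraries, 1.56% beside 4.07%. By the lower of the activin values, the first was the region at the Pcdhgc4 start, described above. A Cdh5 intron region (chr8:104118367-104119641) followed, with 4.81 and 3.62 (vehicle) against 14.5 and 7.86 (activin). A region annotated as an exon and named for Cdh15, the muscle cadherin (chr8:122906325-122907451), had 2.23 and 3.86 (vehicle) against 7.65 and 7.29 (activin). It lay past the RefSeq end of Cdh15, at 122867397 on chromosome 8, so only the name ties it to that gene. A Cdh10 intron region (chr15:18821443-18821639) had no peak in vehicle library 1, 2.02 in vehicle library 2, and 7.28 and 7.47 in the activin libraries.

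An intergenic region 208 kb from the start of Cdh26 (chr2:178668473-178669018) had 2.16 and 2.57 (vehicle) against 7.25 and 7.16 (activin). A region annotated as an intron and named for Cdh15 (chr8:122872874-122874055) had 1.47 and 3.15 (vehicle) against 11.0 and 6.63 (activin). This region also lay past the RefSeq end of Cdh15. The read density of the Cdh10 region was 1.79 in vehicle library 2 and 2.57 and 3.27 with activin. That of the Cdh5 intron region was 1.84 and 1.64 (vehicle) against 2.24 and 2.05 (activin), with the log2 change of 0.03 given above.

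Fewer peaks were called with activin, most of all against vehicle library 2. Clustered peaks numbered 23 and 41 (vehicle) against 22 and 16 (activin), and the others 130 and 277 (vehicle) against 117 and 102 (activin) (2-sided exact permutation test, p = 0.333 for each, the smallest possible). The difference of the means, activin minus vehicle, was −13 for clustered genes and −94 for the others. It was −4 and −20.5 without vehicle library 2, −22 and −168 without vehicle library 1, and −3 and −9.5 with an equal number of the strongest peaks kept from each library. With −log10 q of at least 5 the direction turned, from 1 and 1 with vehicle to 5 and 4 with activin for clustered genes, and from 11 and 12 to 27 and 20 for the others. Over all peaks the numbers at that strength were also higher in both activin libraries, at 12377 and 12760 (vehicle) against 19819 and 15807 (activin). As a share of each library's list, members took 0.184% and 0.178% (vehicle) against 0.163% and 0.167% (activin). Regions with a peak in both libraries of one treatment and in neither of the other numbered 8 for activin (1.78% of 450, beside 1.35% of all regions) and 20 for vehicle (4.44%, beside 4.86%), while the 4 pairs of 1 vehicle and 1 activin library gave 2, 4, 17 and 4.

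Of 10 catenins and adhesion partners, 3 had a promoter peak in all libraries, where 19.6% of all named genes had one. They were Ctnnb1, which encodes β-catenin, Pkp4 and Vcl, which encodes vinculin. Vcl had −log10 q of 56.2 and 53.4 (vehicle) against 87.5 and 76.5 (activin). Of 18 genes of the larger cadherin superfamily 3 had one, namely Celsr2, Clstn3 and Cdhr1. Of 13 regulators of clustered protocadherin choice 4 had one. They were the cohesin genes Smc1a and Stag2, the cohesin loader gene Nipbl, and Rest. Ctcf and the cohesin genes Rad21 and Stag1 had a promoter peak in 0 libraries, and Smc3 in 1. All these counts depend on the name the annotation chose. None of the 6, 4 and 5 tested regions of these lists passed the limma adjusted p of 0.05 in either direction, and 0 had an unadjusted p under 0.05.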

How the data were processed

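The authors deposited a list of broad peaks, its annotation and a quality report for each of the 4 libraries. Per the submitters' processing notes, Bowtie2, MACS2 and HOMER were used with GRCm38/mm10; settings are not given in the sources used here. Per the deposited peak lists, peaks carry a score in whole numbers, a fold (ratio) over background, and p-value and q-value as −log10. The annotation gives the authors' gene name, peak score and signed distance to a start site. The ataqv 1.3.1 report gives high-quality autosomal reads over each of the library's own peaks, per the file headers; chromosome X has none.

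Groups and numbers came from the sample titles. Regions were merged at 1 bp. A shared region had exactly 1 autosomal peak per library and a common part of at least 50% of the union. Log2 of (reads + 1) per kb, centred on the library median, was tested with limma 3.58.1 (trend, no block), adjusted over all shared regions at 0.05, in R 4.3.3; the step was tested on simulated data. Single values were compared by exact permutation, and Wilson intervals came from scipy 1.17.1. Fold changes understate the change of regions with few reads. The replicate numbers are not said to mark anything shared.

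The members, gene lists and tests were chosen with earlier results of these data known. Named were genes with a promoter peak in all libraries, the 4 tested regions of lowest p upward and downward, up to 6 regions strong in 1 treatment only, the 5 genes with most peaks, the 5 strongest regions outside promoters, and the extremes of each clustered array. Alternatives covered peak threshold, scaling, length, pseudocount, read filter, common part, block and each library left out.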

Additional observations from a re-analysis of the deposited data

How the results depend on the processing

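Of the member regions, 1 was called by limma with scaling to all reads in place of 0, the Cdh5 region at −0.83, where 4.36% of all tested regions were called. With the replicate block 0 member regions were called, and 4 of all regions; deviations of libraries with the same number correlated at −0.03, so the numbers are not taken to pair them. With −log10 q of at least 2 the activin minus vehicle difference in clustered peaks was 2, and with at least 5 it was 3.5, against −13; the difference of the other members was 12 with at least 5, against −94. The promoter share difference with at least 5 was −65 points for clustered members, against 11.5, and −7.26 for the others, against 1.41. The −65 points rest on 1 of 1 and 1 of 1 clustered peaks (vehicle) against 1 of 5 and 2 of 4 (activin). With 1 library left out in turn the difference of the others ran from −0.22 to 3.04, the lowest without vehicle library 2. Genes with a promoter peak in all libraries numbered 3 with at least 2 and 1 with at least 5, against 5. Regions found in activin alone numbered 5 with at least 2 and 11 to 44 with 1 library left out (most without activin library 2), against 8. Those found in vehicle alone numbered 1 with at least 2, 0 with at least 5 and 25 to 219 with 1 library left out (most without vehicle library 1), against 20. Leaving out a library loosens these 2 counts by construction; for the other shifts the cause was not tested. The Cdh5 intron region 17.3 kb from the start changed by −0.0019 (without activin library 1) to 0.056 with 1 library left out, and the Cdh26 region 38.1 kb from its start by −0.14 (without vehicle library 1) to 0.19, and by −0.20 without division by length. The limits of these data are the 2 libraries per treatment, with which no exact test can pass 0.05, and peak lists of unequal length, called in each library alone. Only 16 of 450 member regions met the requirements of the density test, and 55 without a minimum common part, so an activin effect on the density of most members was not tested.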
